A study of Mus musculus with 68 samples.

Results

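Early prostate tumours of TRAMP mice that lack SPARC were compared with early tumours of TRAMP mice that have it. The comparison used 13 of the 68 arrays of the study, chosen by the genotype and age in their labels: 6 arrays of SPARC-/- TRAMP +/- mice (ST22 to ST27, 4 animals of 18 weeks and 2 of 19 weeks) and 7 arrays of TRAMP +/- mice (T8 to T14, all of 16 weeks). Both groups carry the TRAMP transgene, in which the rat probasin promoter drives the SV40 T antigens in prostate epithelium, so the comparison concerns the loss of SPARC within transgenic tumours. The other arrays of the study come from TRAMP mice at later ages, from TRAMP mice without osteopontin (OPN), and from mice of the same genotypes without the transgene. Of the groups compared below, late SPARC-null TRAMP held 9 arrays (24 to 29 weeks) and late TRAMP 7 (24 to 25). Without the transgene, early SPARC-null held 7 (16 to 18 weeks) and early wild type 4 (16). Late SPARC-null held 4 (25 to 27 weeks) and late wild type 6 (24). The SPARC-null group reached the higher age in each of these pairs, so an age gap remains in them. Every array is from 1 animal with its own code, and the tissue label is prostate tumour for all of them, mice without the transgene included. Because all 7 TRAMP mice were younger than all 6 SPARC-null TRAMP mice, genotype and this age gap cannot be told apart. The series text speaks of 18-week mice, whereas the labels of the TRAMP arrays give 16 weeks, and the labels were followed. Strain background and breeding scheme were not given in the labels.

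SPARC (osteonectin) is a secreted, collagen-binding glycoprotein of the matricellular class, which means that it regulates how cells and matrix interact rather than building fibres itself. It binds fibrillar collagens and the basement membrane collagen IV, takes part in collagen assembly, and affects adhesion and growth factor signalling. In prostate and other tumours it is made largely by stromal fibroblasts and endothelium and, in some tumours, by the cancer cells.

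Expression was measured as 1 log2 value per probe set on Clariom S arrays. A difference is always the mean of the SPARC-null TRAMP arrays minus the mean of the TRAMP arrays on this log2 scale, so that 1 unit is a factor of 2. Differences were tested for 22206 probe sets with limma. A probe set was called when its p, adjusted by the Benjamini-Hochberg method over all 22206, was under 0.05.

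The genotype label was checked on the Sparc probe set. It lay at 6.18, 6.71 and 7.35 (lowest, median and highest of 7) in TRAMP and at 6.28, 6.38 and 6.96 (of 6) in SPARC-null TRAMP. The ranges overlapped, with ST22 the highest of the SPARC-null arrays and T10 the lowest of the TRAMP arrays. The difference was -0.25, with an exact 2-sided permutation p of 0.177 over 1716 splits of the arrays (0.354 adjusted over the 2 exact tests) and an adjusted p of 0.706 in limma. Without T10 the difference was -0.34 (exact permutation p = 0.0411, or 0.0822 adjusted over the 2 tests). The labels and annotation do not say which part of the transcript this probe set covers. It may lie outside the deleted part and does not settle the label. Its values in both groups also lay below the 95th percentile of the negative controls (9.159). In the other SPARC comparisons the Sparc difference was also negative and not called, at -0.34 in late TRAMP (adjusted p = 0.999, limma), -0.74 in early mice without the transgene (adjusted p = 0.481) and -0.85 in late mice without it (adjusted p = 0.0594). Taken as a single gene, its unadjusted limma p was 0.0928 in early TRAMP, 0.0116 in late TRAMP and 0.000433 in early mice without the transgene. Spp1, the gene of OPN, has no named probe set. The 6 control probe sets for SV40 averaged 6.82 ± 0.52 (SD, n = 7) in TRAMP and 6.81 ± 0.63 (SD, n = 6) in SPARC-null TRAMP, a difference of -0.01 (exact permutation p = 0.962, and the same adjusted), while the highest of the 30 arrays without the transgene was 5.52. Transgene signal was therefore present in both groups and overlapped between them.

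Markers of the labelled tissue were present in both groups. Pbsn, the androgen-driven secretory gene whose promoter drives the transgene, lay between 8.24 and 11.77 in TRAMP and between 9.88 and 11.08 in SPARC-null TRAMP. The luminal keratin gene Krt18 lay between 8.01 and 10.19 and between 8.35 and 10.06. Array quality was scored as the AUC with which positive control probe sets exceeded negative ones. It was 0.726 ± 0.032 (SD, n = 7) in TRAMP and 0.724 ± 0.022 (SD, n = 6) in SPARC-null TRAMP, with T10 (0.674) and ST22 (0.689) below 0.7. The first principal component of the 13 arrays held 50.2% of their variance, and T10, ST22, ST23 and T9 lay at its low end. ST22 and ST23 are also the 19-week animals. No 2 arrays were identical, and correlations between arrays ran from 0.843 to 0.984.

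Few probe sets separated the groups. In all, 4 of 22206 were called (0.018%), of which 1 was higher and 3 were lower in SPARC-null TRAMP. The named genes among them were Nid1, which fell, and Zfp865, which rose, and the remaining 2 carry no gene symbol. All values of Nid1 and Zfp865 in both groups lay between the median (5.383) and the 95th percentile (9.159) of the negative controls. Without adjustment, 977 probe sets were higher (4.4%) and 729 lower (3.28%) at p under 0.05. The median difference over all probe sets was 0.01, 88.0% of the differences were within 0.25 and 98.9% within 0.5, and 21 probe sets differed by more than 1. The 95% interval of the difference lay wholly within 1 unit of 0 for 98.1% of probe sets and within 0.5 for 77.5%.

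**Figure D1:**
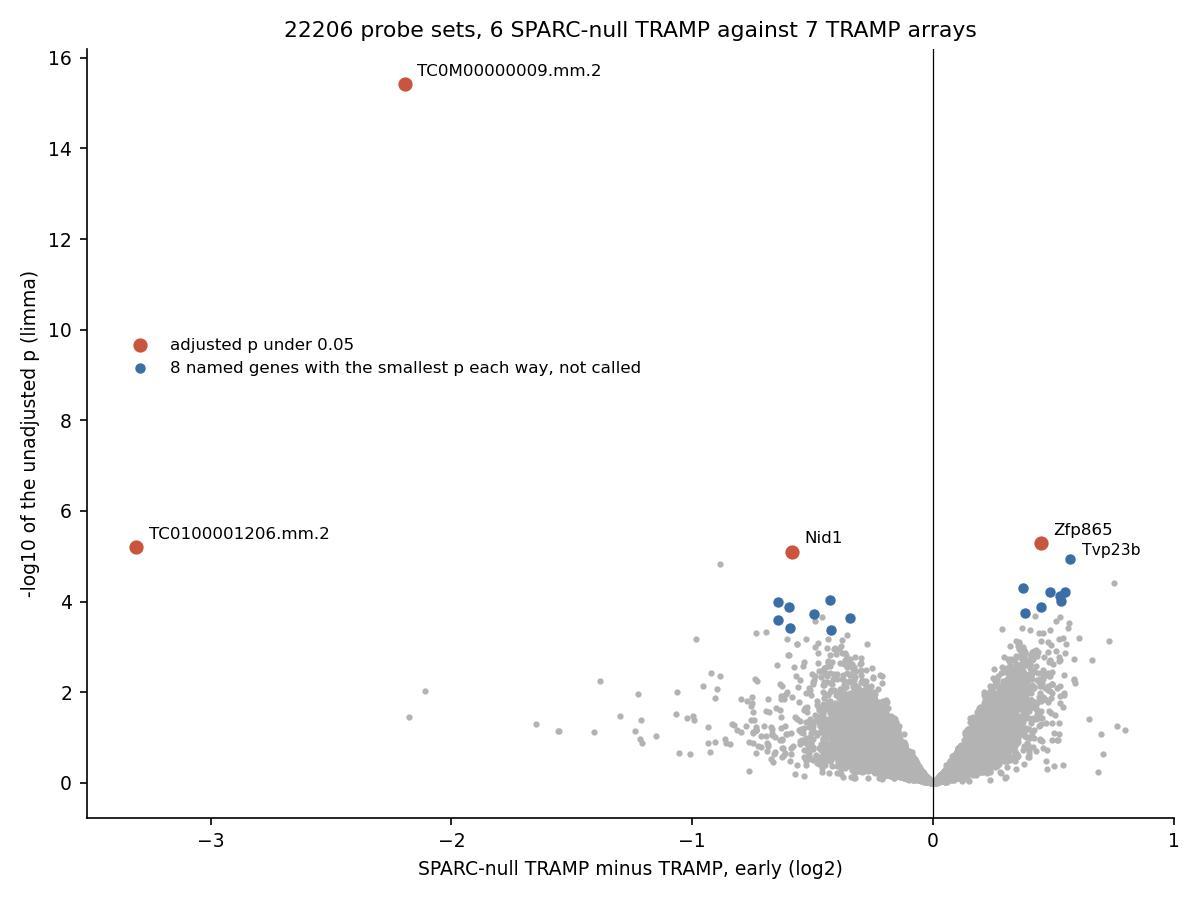
Difference between early SPARC-null TRAMP (6 arrays) and early TRAMP (7 arrays) in log2 units on the horizontal axis, against -log10 of the unadjusted limma p on the vertical axis, for 22206 probe sets (grey). The 4 probe sets with an adjusted p under 0.05 are red, and TC0M00000009.mm.2 stands far above the others, while the 16 named genes next in rank (blue) lie between -0.65 and 0.57.

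Nid1 encodes nidogen-1 (entactin), which links the laminin and collagen IV networks of basement membranes. Its value was 7.09, 7.33 and 7.78 (lowest, median and highest) in TRAMP and 6.66, 6.77 and 7.01 in SPARC-null TRAMP. Every SPARC-null array lay below every TRAMP array. The difference was -0.59 (SE 0.11, adjusted p = 0.0436, limma), a factor of 1.5. The call was kept without T10 (adjusted p = 0.0206), and leaving out any other single array ended it (adjusted p 0.0568 to 0.149). Fitted on the 13 early arrays alone, the same difference had an adjusted p of 0.98, and with age as a covariate 0.295. All early TRAMP arrays have the same age, so the slope for age comes only from age differences within the other transgenic groups. This covariate therefore cannot separate genotype from the age gap, here or below.

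Zfp865, a C2H2 zinc finger protein gene, was the single called probe set that rose. It lay at 6.21, 6.32 and 6.64 in TRAMP and at 6.53, 6.81 and 7.07 in SPARC-null TRAMP. The highest TRAMP array exceeded 2 of the 6 SPARC-null arrays, and the other 4 stood above all TRAMP arrays. The difference was 0.45 (SE 0.08, adjusted p = 0.0436, limma), a factor of 1.36. The call was kept without T9, ST24 or ST25 and was lost when any of the other 10 arrays was left out (adjusted p 0.0629 to 0.196). It was also lost on the 13 early arrays alone (adjusted p = 1) and with age as a covariate (adjusted p = 0.484).

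The 2 called probe sets without a symbol showed the largest differences, and they fall outside the rule for named genes and were chosen after their values were seen. TC0M00000009.mm.2 has the prefix that the platform uses for the mitochondrial genome. Of 19508 named probe sets with a known chromosome, 19506 carry the chromosome in this prefix. It lay at 10.75, 11.71 and 11.78 in TRAMP and at 8.57, 9.49 and 9.85 in SPARC-null TRAMP. The groups were apart, and the difference was -2.19 (SE 0.16, adjusted p = 8.53e-12, limma), a factor of 4.58. It was called in all 23 alternative settings, with adjusted p from 7.53e-14 to 0.00038. The other 8 probe sets with the mitochondrial prefix were not called. Their differences ran from -0.59 to 0.23, and their medians in TRAMP ran from 9.83 to 12.22.

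TC0100001206.mm.2, whose prefix stands for chromosome 1, lay at 8.85, 11.16 and 12.38 in TRAMP and at 6.85, 7.41 and 8.23 in SPARC-null TRAMP. The ranges did not overlap, and the TRAMP arrays spread widely. The difference was -3.31 (SE 0.63, adjusted p = 0.0436, limma), a factor of 9.92. The call was kept without T8 or T10 and lost without any other single array (adjusted p 0.0568 to 0.144). It was also lost on the 13 early arrays alone (adjusted p = 0.0635) and with age as a covariate (adjusted p = 0.295).

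**Figure D2:**
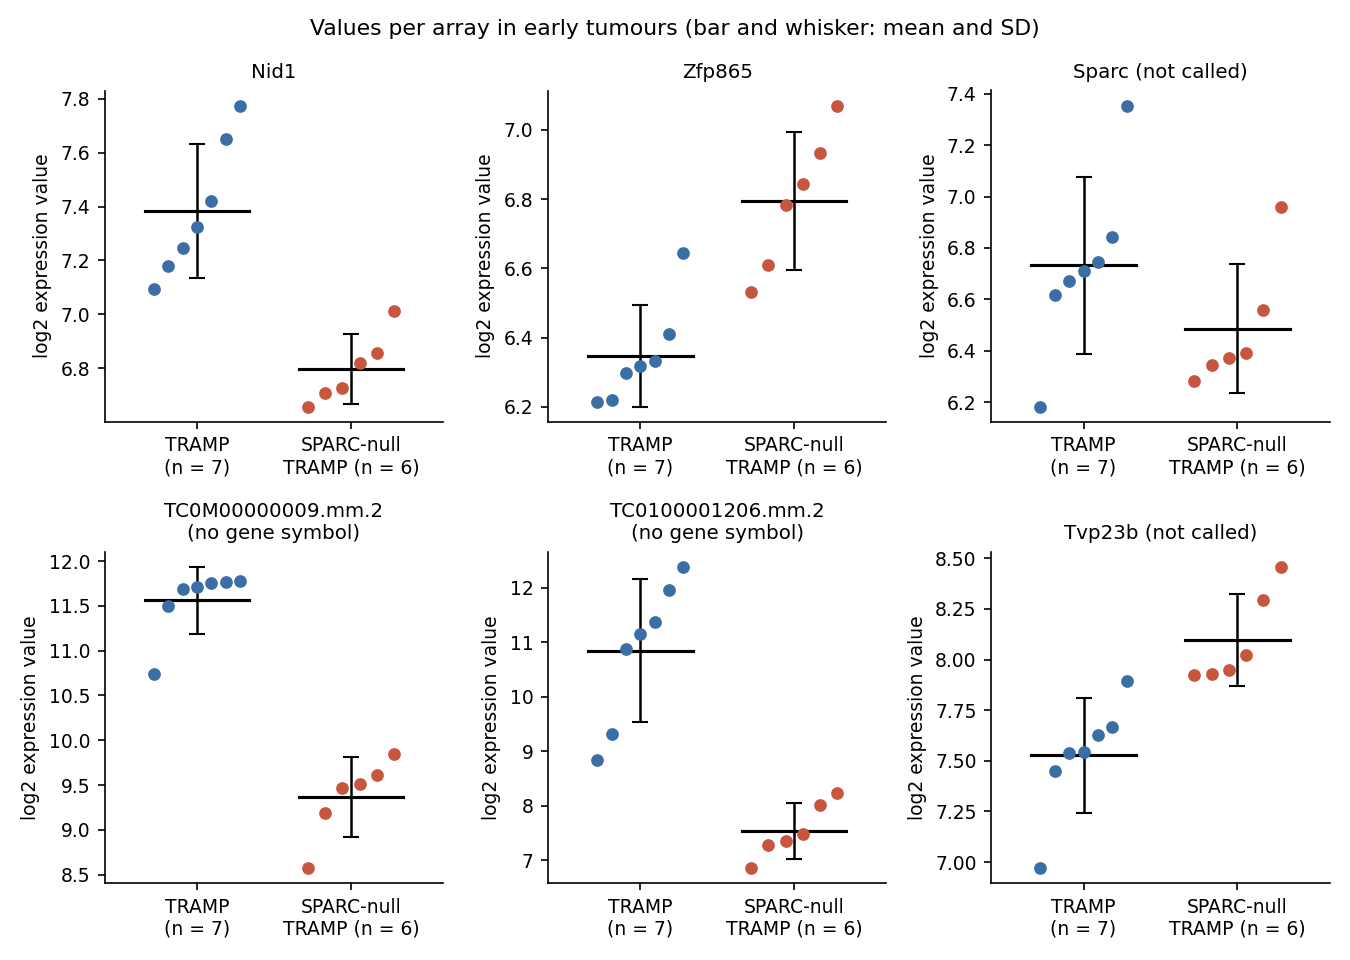
Log2 expression value of each early array (7 TRAMP, blue; 6 SPARC-null TRAMP, red) for the 4 called probe sets, for Sparc and for Tvp23b, with the mean (line) and SD (whisker) of each group; points within a group are sorted by value and have no other order. The groups are apart for Nid1, both probe sets without a symbol and Tvp23b, and overlap for Zfp865 and Sparc.

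Both unnamed probe sets were also lower in the other SPARC-null groups. TC0M00000009.mm.2 differed by -2.16 (adjusted p = 6.29e-13, limma) between late SPARC-null TRAMP and late TRAMP, and by -2.20 (adjusted p = 2.07e-05) between early SPARC-null and early wild-type prostate without the transgene. Of the 26 SPARC-null arrays of the study, 24 lay below the lowest (10.75) of the 41 arrays with SPARC. The 2 exceptions, at 11.70 and 11.44, are an early and a late SPARC-null mouse without the transgene. TC0100001206.mm.2 differed by -3.52 in late TRAMP (adjusted p = 0.00397) and by -4.01 without the transgene (adjusted p = 0.0238). Of the 41 arrays with SPARC, 6 lay below the highest early SPARC-null TRAMP array (8.23), among them all 3 late OPN-null TRAMP arrays (7.57 to 7.93). Array O12, which was kept out of the groups because its code and genotype label disagree, had 11.76 and 12.36.

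**Figure D3:**
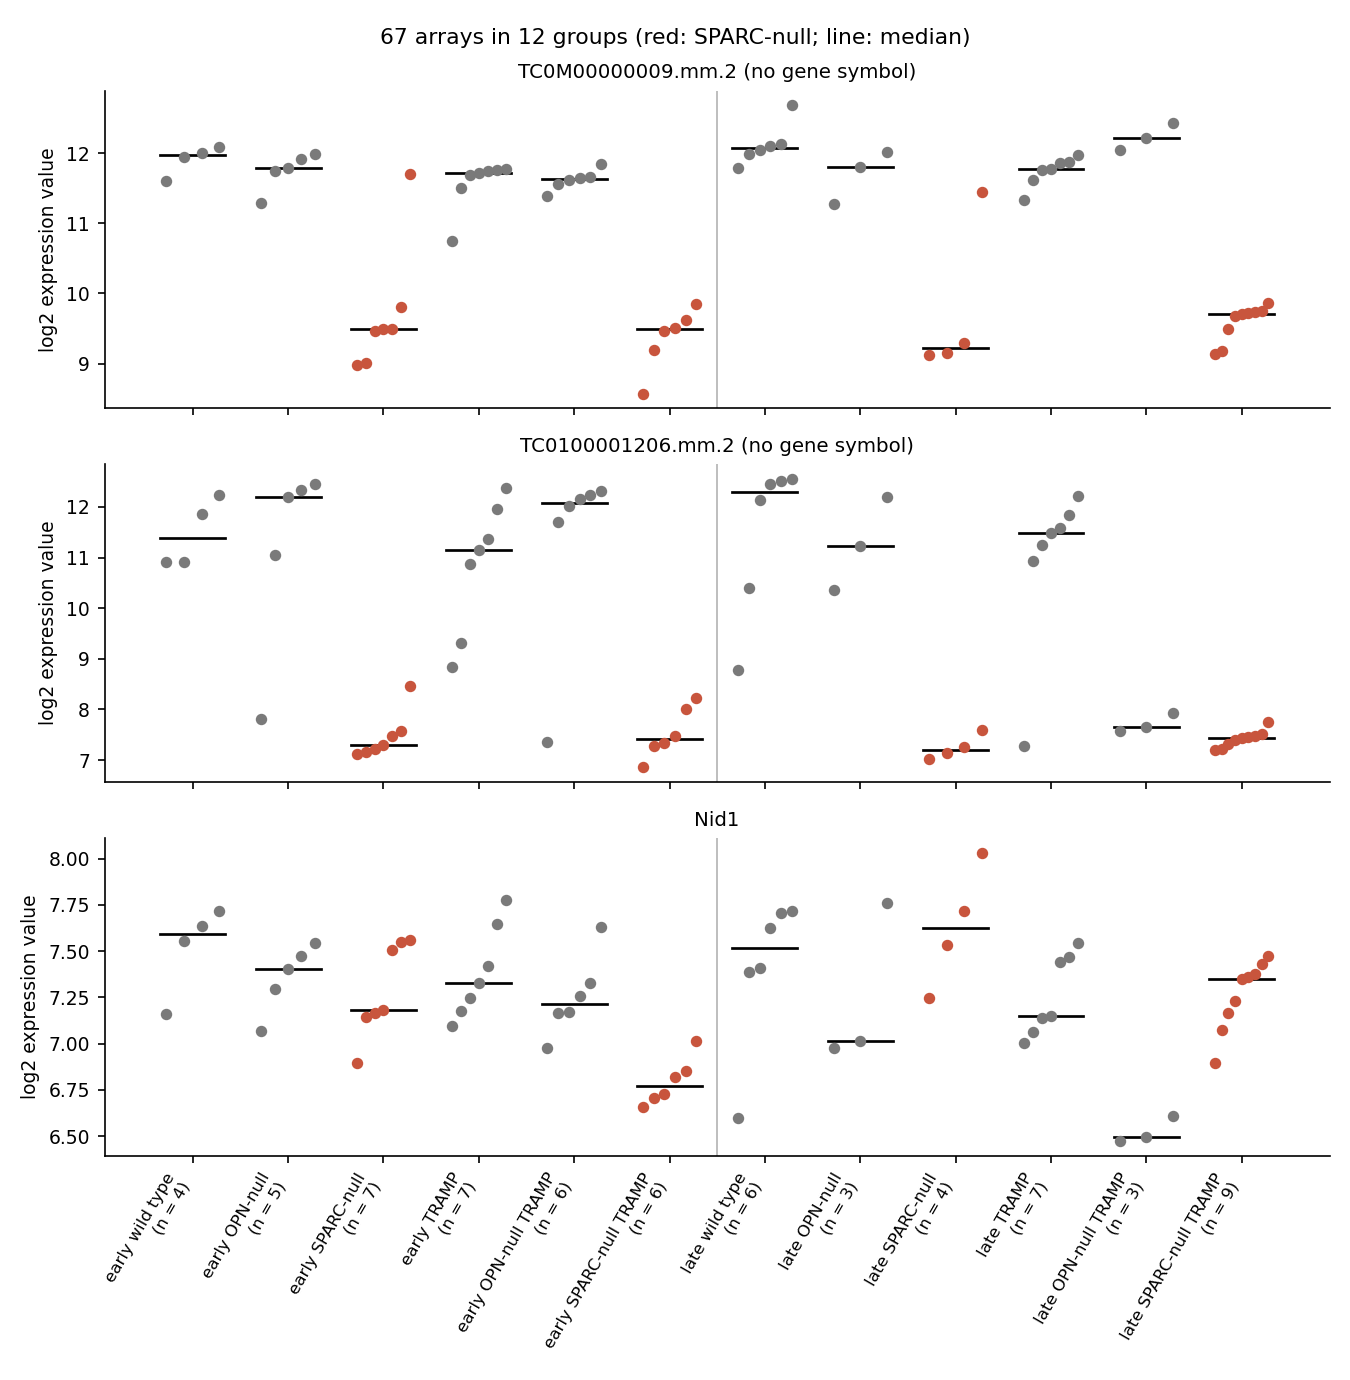
Log2 expression value per array of TC0M00000009.mm.2, TC0100001206.mm.2 and Nid1 in the 12 groups of the study (67 arrays; SPARC-null groups red, others grey; line, median). For TC0M00000009.mm.2 the SPARC-null arrays lie between 8.57 and 9.86 apart from 2 at 11.70 and 11.44, while the Nid1 median is 6.77 in early SPARC-null TRAMP and 7.18 to 7.63 in the other SPARC-null groups.

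In late tumours the differences of Nid1 and Zfp865 were 0.00 and -0.11, and without the transgene -0.23 and 0.11, none of them called. Nid1 values in late OPN-null TRAMP were 6.47 to 6.61 (3 arrays), all below those of early SPARC-null TRAMP. The late comparison had 2 calls in all (0.00901%), both of them the unnamed probe sets, and the early comparison without the transgene had 3 (0.0135%), namely these 2 and Prom2, which differed by -0.10 in early TRAMP. The late comparison without the transgene had 13 calls (0.0585%), 9 of them higher, again with both unnamed probe sets among the lower ones, and 2976 probe sets at an unadjusted p under 0.05.

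The difference between the effects was tested as well. For late minus early, limma called 0 probe sets (0%), with 858 at an unadjusted p under 0.05. The smallest p-values belonged to Zfp865 (-0.56, SE 0.11, adjusted p = 0.364), Arsi (-0.50), Nid1 (0.59, SE 0.15, adjusted p = 0.977) and Egflam (0.64). For transgenic minus non-transgenic in early mice, limma again called 0 (0%), with 825 at an unadjusted p under 0.05, and the smallest p-values were those of Abi1 (0.77, adjusted p = 0.221), Dnajc16 (0.78), Rragc (-1.03) and F830016B08Rik (-0.54). With array quality as a covariate the test of transgenic minus non-transgenic called 4 probe sets, among them Dnajc16 (0.79, adjusted p = 0.0295) and Abi1 (0.76, adjusted p = 0.0431). The differences between the effects of Nid1 and of Zfp865 did not pass either test, which does not show that the effects are equal.

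Next to the calls, TC0200005333.mm.2, a probe set without a symbol, differed by -0.89 (adjusted p = 0.054, limma), with the ranges apart. It was chosen after its values were seen. The named genes next in rank in each direction did not pass the threshold and are given as values. Among the 8 with the smallest p on the higher side, Tvp23b, which encodes a Golgi membrane protein, came closest (difference 0.57, SE 0.11, adjusted p = 0.0515). It lay at 6.97, 7.54 and 7.90 in TRAMP and at 7.92, 7.99 and 8.46 in SPARC-null TRAMP, with no overlap. The difference in late TRAMP was 0.44. St14, which encodes matriptase, a membrane serine protease of epithelia, lay at 6.83, 6.97 and 7.26 in TRAMP and at 7.27, 7.48 and 7.99 in SPARC-null TRAMP (difference 0.53, adjusted p = 0.165). It too was higher on every SPARC-null array, and its differences were 0.30 in late TRAMP and 0.41 without the transgene. Slc5a11, a sodium-coupled myo-inositol transporter gene, differed by 0.48 with the ranges apart, but its values of 3.96 to 4.95 lie low among the negative controls, of which 27.4% were below its lower group mean. The remaining 5 were Arsi (0.38), H2bc15 (0.55), the J-domain gene Dnajc16 (0.53), the lysophospholipid acyltransferase gene Lpcat4 (0.45) and Ttc5 (0.38), with adjusted p from 0.134 to 0.231 and overlapping ranges.

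On the lower side, matrix and membrane genes were among the 8 with the smallest p. Col23a1, a transmembrane collagen, lay at 7.08, 7.20 and 7.55 in TRAMP and at 6.60, 6.85 and 6.96 in SPARC-null TRAMP (difference -0.43, adjusted p = 0.165), with no overlap. Podn encodes podocan, a small leucine-rich proteoglycan, and 5 of 6 SPARC-null arrays lay below the lowest TRAMP array (6.04, 6.45 and 7.04 against 5.34, 5.81 and 6.06; difference -0.65, adjusted p = 0.165). Egflam, the gene of the dystroglycan-binding matrix protein pikachurin, differed by -0.42 (adjusted p = 0.284). Gnao1, a heterotrimeric G protein subunit gene, lay at 7.58, 7.75 and 8.25 against 6.91, 7.17 and 7.33 (difference -0.64, adjusted p = 0.234), and Rab26, a small GTPase gene, differed by -0.34. The ranges were apart for Gnao1 and Rab26. The others were the helicase gene Recql (-0.60), the monoacylglycerol lipase gene Mgll (-0.49) and Aasdhppt (-0.59), whose ranges overlapped.

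Of these 18 named genes, the 2 called included, 10 had the same direction in late TRAMP, 13 in early mice without the transgene, and 5 in all 3 other SPARC comparisons. In each of those comparisons 3 of the 18 had the same direction at an unadjusted p under 0.05. Of all 22206 probe sets, 719 were at that threshold in late TRAMP, in either direction. The count was 1068 in early and 2976 in late mice without the transgene, so equal counts of 3 are not equal agreement. Of the 1706 at that threshold in early TRAMP, 80 were so in the same direction in late TRAMP. In early mice without the transgene 89 were. Over all 1706 probe sets at that threshold in early TRAMP, 61.1% had the same sign in late TRAMP, beside 51.8% of all 22206, and 64.2% had it in early mice without the transgene, beside 56.8%. Across all probe sets, which are not independent, the differences correlated with r = 0.11 with late TRAMP and r = 0.30 with early mice without the transgene, groups that share no array with the early tumours.

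**Figure D4:**
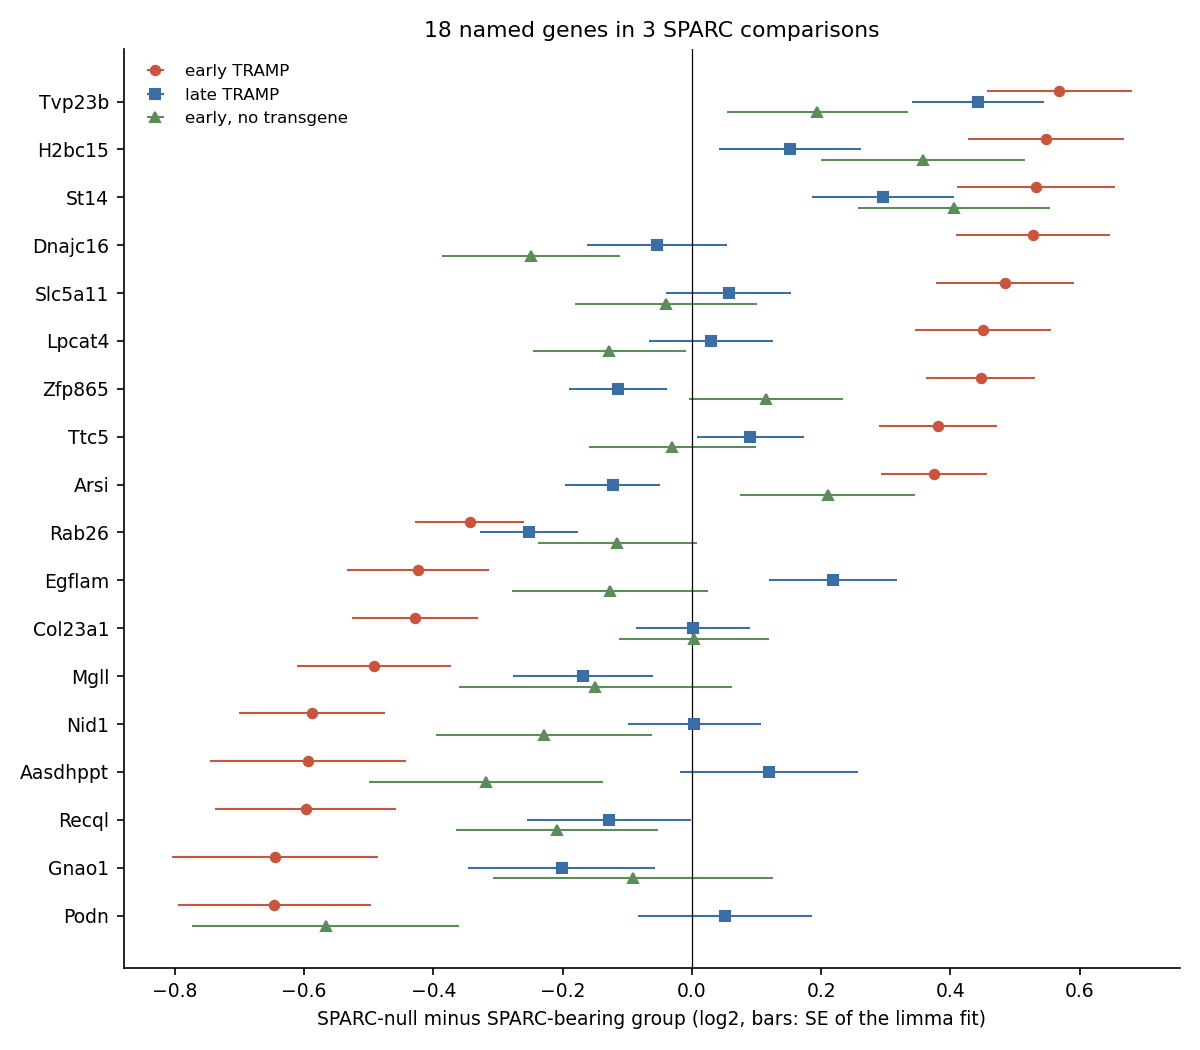
Log2 difference between SPARC-null and SPARC-bearing groups for the 18 named genes in early TRAMP (red circles), late TRAMP (blue squares) and early mice without the transgene (green triangles); bars are the SE of the limma fit. Tvp23b, St14 and Rab26 lie on the same side of 0 in all 3, whereas Nid1, Col23a1 and Zfp865 lie within 0.25 of 0 outside early TRAMP.

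Values did not overlap between the genotypes for few probe sets: 12 had every SPARC-null array above every TRAMP array (0.054%) and 12 had every one below (0.054%). Of the 1716 splits of 7 and 6 arrays, 1 separates them fully in a given direction, a share of 0.000583. The shares seen each way are near this one, so ranges apart do not by themselves mark a gene as different. Beyond those already named, and chosen after their values were seen, they included the histone genes H3c8 (difference 0.56) and H2bc9 (0.36), the nuclear import gene Kpna2 (0.52), the spliceosomal assembly gene Gemin5 (0.41) and the chromatin gene Dpf3 (-0.36). Their adjusted p-values in limma ran from 0.284 to 0.361.

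The SPARC family and the matrix were examined in lists. None of the 8 SPARC family genes was called. The list median was -0.22, beside 0.01 for all probe sets, and 6 of 8 differences were negative. Fstl1 (-0.24, SE 0.11) and Smoc2 (-0.19, SE 0.10), both secreted relatives of SPARC, were the 2 at an unadjusted p under 0.05, with adjusted p of 0.635 and 0.649. Sparcl1 (hevin), the closest relative of SPARC, had the widest spread, at 6.41, 8.74 and 9.48 in TRAMP and 6.74, 7.49 and 8.93 in SPARC-null TRAMP (difference -0.62, SE 0.39). The testican genes Spock1 and Spock3 differed by 0.10 and 0.05. No family member passed the test in either direction.

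Among 18 basement membrane genes Nid1 was the only call, and the list median was -0.10. Its paralogue Nid2 lay at 6.80, 7.06 and 7.25 in TRAMP and 6.67, 6.92 and 6.94 in SPARC-null TRAMP (difference -0.21, adjusted p = 0.653). The laminin chain gene Lamc1, whose product binds nidogen, differed by -0.54 with an SE of 0.40, the perlecan gene Hspg2 by -0.24, and the collagen IV genes Col4a1 and Col4a2 by 0.00 and 0.04. None of these partners of Nid1 passed the test.

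The 11 fibrillar collagen genes, which encode the main ligands of SPARC, held 0 calls and 0 genes at an unadjusted p under 0.05, with a median of 0.02, which was -0.20 with age as a covariate. Col1a1 differed by 0.04, with a 95% interval from -0.18 to 0.27, and Col3a1 by -0.31, with an interval from -0.66 to 0.05. Of 18 genes of collagen processing and cross-linking none was called (median -0.04), and the lysyl oxidase gene Loxl3 differed by -0.36. Of 16 other collagens and proteoglycans none was called (median -0.10), with fibromodulin, Fmod (-0.32), and Col16a1 (-0.28) at an unadjusted p under 0.05. Fmod also differed by -0.31 in late TRAMP and by -0.73 without the transgene. The 16 other matricellular genes had a median of -0.07, and Thbs2, an angiogenesis inhibitor gene, was the only one at that threshold (-0.30). Matrix proteases and their inhibitors (19 genes, 0 called) had Timp1 at 0.31 and Mmp14, the membrane-bound collagenase, at -0.37. Adhesion genes (16, 0 called) had the integrin-linked kinase gene Ilk at -0.76 and the integrin gene Itgb5 at 0.28, and the TGF-beta list (18, 0 called) had the co-receptor gene Eng at 0.34.

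**Figure D5:**
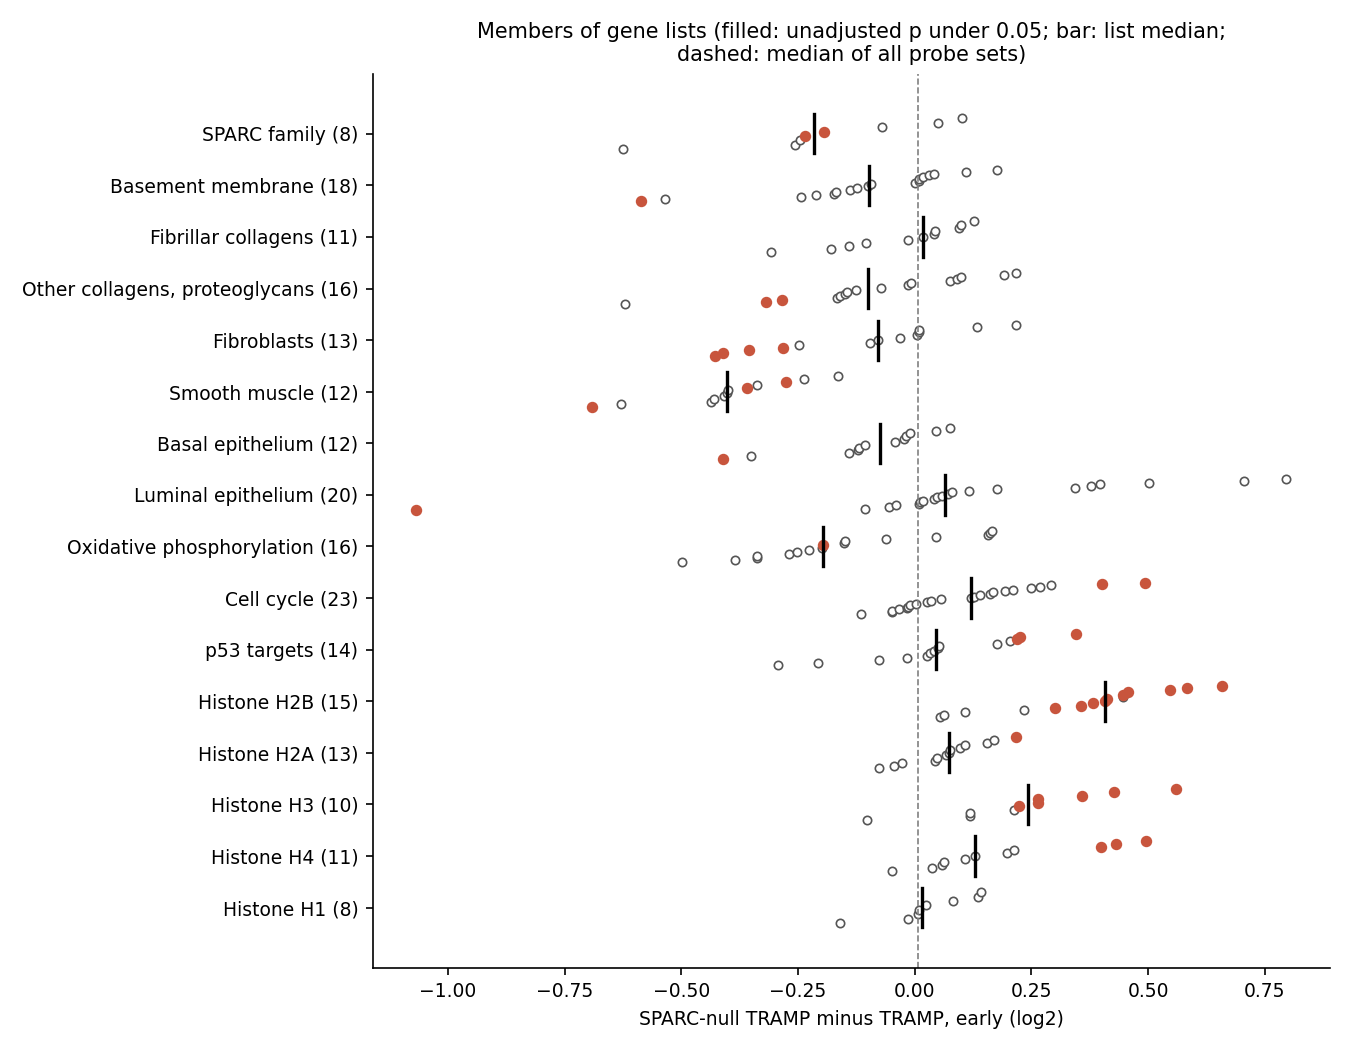
Log2 difference of each member of 11 gene lists and of the 5 histone classes, with the number of measured genes in brackets; filled points have an unadjusted limma p under 0.05, bars mark the list median and the dashed line the median of all probe sets (0.01). All 12 smooth muscle genes lie below 0 and all 15 histone H2B genes above 0, and only 1 list member, Nid1, was called.

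Over all 38 lists, 521 genes were measured and Nid1 was the only one called. At an unadjusted p under 0.05 there were 17 higher and 20 lower, to be read against 4.4% and 3.28% of all probe sets. In bulk tissue, fewer cells of a type and less RNA per cell cannot be told apart.

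Smooth muscle had the list median farthest from 0 of the 38 lists. All 12 genes had negative differences (median -0.40), none was called (limma), and 3 were at an unadjusted p under 0.05: desmin, Des, at 6.08, 6.74 and 8.38 against 5.09, 6.30 and 6.77 (difference -0.69, SE 0.30), Smtn (-0.28, SE 0.08) and the transcriptional coactivator gene Myocd (-0.36, SE 0.12). The summed level of the list, as the mean of its 12 log2 values, ran from 7.56 to 9.60 in TRAMP and from 7.71 to 8.58 in SPARC-null TRAMP, so the ranges overlapped. The highest score belonged to T13 (1.25 above the mean of the 13 arrays) and the lowest to T10 (-0.78), and these were the TRAMP arrays of highest and lowest AUC. In late TRAMP the median of the same genes was 0.26. The part of muscle content in the differences of matrix genes was not tested.

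Fibroblast markers had 4 of 13 genes at an unadjusted p under 0.05, all lower and none called: the tetranectin gene Clec3b (-0.41), Pi16 (-0.43), the plasma glutathione peroxidase gene Gpx3 (-0.28) and Cd34 (-0.36). The remaining members lay on both sides of 0, with Thy1 at 0.13 and Pdgfrb at -0.03, and the list median was -0.08. In late TRAMP these 4 differed by -0.02 to 0.10. Endothelial genes had a median of -0.01 and no member at that threshold, with Kdr at -0.29 and Vwf at 0.21. Adipose genes had a median of -0.14 and none at that threshold, with Fabp4 at -1.01 and Adipoq at -0.78, and the list's level ran from 6.34 to 7.38 in TRAMP and from 6.29 to 6.63 in SPARC-null TRAMP.

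Of 20 luminal and androgen-regulated genes none was called (median 0.06). Wfdc15b, a secreted protease inhibitor-like gene, was the only one at an unadjusted p under 0.05 (-1.07, SE 0.47), at 7.64, 8.65 and 9.86 in TRAMP and 5.41, 8.46 and 8.72 in SPARC-null TRAMP, and the low values were those of the 19-week animals, ST22 (5.81) and ST23 (5.41), beside 8.25 to 8.72 in the 18-week animals. Pigr, the polymeric immunoglobulin receptor gene, differed by 0.80 (SE 0.43), Fkbp5 by 0.50 and Pbsn by 0.34 (95% interval -0.68 to 1.36). Among 12 basal genes 10 differences were negative (median -0.07) and none was called. Trp63, the basal cell transcription factor, lay at 5.78, 6.51 and 6.63 against 5.66, 5.83 and 6.12 (difference -0.41, adjusted p = 0.422), and Krt5 differed by -0.35. Among 17 epithelial adhesion genes the polarity gene Crb3 differed by 0.39 (adjusted p = 0.376) and E-cadherin, Cdh1, by 0.35, with a list median of 0.01. Of 14 genes of mesenchymal transition none was called (median -0.06), with Zeb1, a repressor of E-cadherin, at -0.30 and Vim at 0.16.

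Neuroendocrine genes mark a late, aggressive course of TRAMP tumours. None of 23 was called or reached an unadjusted p under 0.05, and the median was 0.07. Their mean level per array was low, at 5.54 to 5.89 in TRAMP and 5.61 to 5.98 in SPARC-null TRAMP, beside a negative control median of 5.383. Chga lay at 5.51, 6.11 and 6.39 in TRAMP and 5.67, 6.12 and 6.87 in SPARC-null TRAMP (difference 0.24, 95% interval -0.04 to 0.52), and Insm1 differed by 0.27.

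Cell cycle genes had 16 of 23 differences above 0 and a median of 0.12, with 0 called. The replication licensing gene Mcm2 lay at 7.30, 7.62 and 8.70 in TRAMP and 7.94, 8.27 and 8.55 in SPARC-null TRAMP (difference 0.49, adjusted p = 0.461), and the mitotic kinase gene Cdk1 differed by 0.40 (adjusted p = 0.552). Those were the 2 at an unadjusted p under 0.05, whereas Mki67 differed by -0.03 (95% interval -0.54 to 0.47) and Top2a by -0.05. Mki67 spread more widely in SPARC-null TRAMP (5.68, 7.05 and 7.80) than in TRAMP (6.42, 6.66 and 7.32). Of 14 p53 target genes Sesn2 (0.35), Phlda3 (0.23) and Bbc3 (0.22) were at that threshold, while Cdkn1a differed by 0.05.

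Histone genes were not in a list and were chosen after their values were seen, so their counts are a description without a test. Most of the core histone genes counted here are transcribed in S phase, whereas the H1 class also holds replication-independent and germline variants such as H1f10, H1f7 and H1f8. Many histone genes are near-identical copies whose probes may read each other. H3c14 and H3c15, for instance, gave the same difference of 0.12. All 15 measured H2B genes had a positive difference, with a median of 0.41 and 10 at an unadjusted p under 0.05. For H2A the median was 0.07 (10 of 13 positive, 1 at that threshold), for H3 0.24 (9 of 10, 6), for H4 0.13 (10 of 11, 3) and for H1 0.02 (6 of 8, 0). Among all probe sets 4.4% were higher and 3.28% lower at that threshold. Genes whose probes read each other are not separate observations in these counts. None was called. H2bc15 lay at 6.90, 7.34 and 7.69 in TRAMP and 7.49, 7.64 and 8.32 in SPARC-null TRAMP (difference 0.55, adjusted p = 0.134), H2bc14 at 7.38, 7.83 and 8.97 against 8.04, 8.63 and 9.09 (difference 0.66), and H2bc9 at 7.57, 7.66 and 7.91 against 7.92, 7.96 and 8.42. The mean over the H2B genes, centred on the 13 arrays, ran from -0.46 to 0.13 in TRAMP and from -0.02 to 0.55 in SPARC-null TRAMP, so that the groups overlapped, with T8 and T11 the highest TRAMP arrays and ST22 and ST26 the lowest SPARC-null arrays. In late TRAMP the median of these 15 differences was 0.05 and without the transgene 0.13.

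The promoters of the 3 H2B genes with the smallest p are shown because H2A and H2B genes often share a divergent promoter while their differences here were unlike. The sequences are the 150 bases before the RefSeq start of each gene (build GRCm38.p6), 5′ to 3′ in the direction of the gene, at chr13:21753926-21754075 on the plus strand for H2bc15, chr13:21716184-21716333 on the minus strand for H2bc13 and chr13:23543445-23543594 on the minus strand for H2bc9. Capitals mark the CCAAT motif on either strand, which reads ATTGG on the strand shown when it lies on the other.
H2bc15: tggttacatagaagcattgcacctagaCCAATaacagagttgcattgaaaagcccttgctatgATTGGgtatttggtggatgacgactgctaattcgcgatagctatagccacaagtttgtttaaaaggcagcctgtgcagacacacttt
H2bc13: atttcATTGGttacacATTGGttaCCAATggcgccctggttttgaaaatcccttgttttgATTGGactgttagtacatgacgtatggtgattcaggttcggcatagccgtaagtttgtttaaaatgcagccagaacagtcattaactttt
H2bc9: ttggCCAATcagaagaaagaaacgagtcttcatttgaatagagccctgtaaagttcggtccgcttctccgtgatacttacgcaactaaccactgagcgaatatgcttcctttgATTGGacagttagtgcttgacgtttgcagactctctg
In the 250 bases before the start, CCAAT was present on either strand in all 13 of the H2B promoters found among the 15 genes and in all 13 H2A promoters, against 34.5% of 27025 genes with a promoter. It was present in 6 of 8 H3 and 3 of 10 H4 promoters. The octamer ATTTGCAT, searched on both strands and able to overlap a CCAAT by the letters at its ends, was present in 6 of 13 H2B and 6 of 13 H2A promoters and in 1.61% of all. These matches describe letters only, and both motifs were equally frequent in the H2B and the H2A promoters. Where an H2A and an H2B gene share a divergent promoter, the same bases can count in both classes. The equal counts are therefore not an independent comparison of the 2 classes.

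Immune and stress lists held no call. The genes at an unadjusted p under 0.05 were the neutrophil gene S100a8 (0.45), the inflammatory cytokine gene Il1b (0.35), the integrin gene Itgam (0.26), the natural killer receptor gene Ncr1 (0.25), the mast cell receptor gene Mrgprb2 (0.37), the interferon regulator Irf7 (0.31) and the hypoxia-induced kinase gene Pdk1 (0.32), all with positive differences, and Ptgs2, with a negative one. The list medians were 0.04 for neutrophils, -0.03 for macrophages, 0.03 for T and NK cells, 0.12 for B and plasma cells (none of its 9 genes at that threshold), 0.07 for mast cells, -0.01 for the interferon response, -0.01 for the TNF and NF-kB response, and 0.01 for hypoxia and glycolysis. With age as a covariate the medians of B and plasma cells (-0.11), neutrophils (-0.13) and T and NK cells (-0.16) turned negative, and that of the TNF and NF-kB response was -0.09. Mean levels per array of the neutrophil, T and NK, B and plasma and mast cell lists lay between 5.56 and 6.35. The negative control median was 5.383, so these lists are low and small differences in them may be missed. Ptgs2, the inducible prostaglandin synthase gene, had the largest difference of any list member below 0, -1.30 (SE 0.59, adjusted p = 0.613), at 5.93, 7.17 and 9.47 in TRAMP and 5.79, 6.13 and 6.72 in SPARC-null TRAMP.

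The oxidative phosphorylation list, made of nuclear genes, had a median of -0.20 with 12 of 16 differences negative, and 0 called. Cox6c differed by -0.50 and Ndufv1, the only member at an unadjusted p under 0.05, by -0.20. With age as a covariate the list median was 0.23, so its sign changed under that covariate, which cannot separate genotype from the age gap. The unfolded protein response (median -0.04), heat shock (0.05), immediate early (-0.12), cholesterol and lipid (0.01) and remaining SIBLING genes (0.15, 4 genes) held 0 calls, and Idi1 of lipid synthesis (0.25) was the only member of these 5 lists at that threshold.

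Markers of tissue beside the prostate varied between animals in both groups. Whether such tissue was part of the samples was not tested. The seminal vesicle genes had a median of -0.30 (-1.14 to 0.66 over the alternatives) with 0 called, and their centred mean per array ran from -2.001 to 4.63 in TRAMP and from -2.05 to 3.92 in SPARC-null TRAMP, with T13, T8 and ST24 high. Skeletal muscle genes (median -0.105), urothelial genes (-0.09) and genes of autonomic neurons and glia (-0.02) had no member at an unadjusted p under 0.05.

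Of the 6 genes on each side of Sparc on chromosome 11, limma called 0 of 12, and Slc36a2 (0.32), G3bp1 (0.27) and Nmur2 (-0.43) were at an unadjusted p under 0.05. Of the 50 on each side limma called 0 of 100, with 8 higher and 3 lower at that threshold and 1 with every SPARC-null array above every TRAMP array. Among all probe sets, 4.4% were higher and 3.28% lower at that threshold, and 0.054% had every SPARC-null array above every TRAMP array. Among the 18 named genes above, Col23a1 and Tvp23b also lie on chromosome 11, at 57 and 127 genes from Sparc. The positions of the other genes with ranges apart were not examined.

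With array quality as a covariate 29 probe sets were called, 16 of them higher, and all 4 calls remained. The 21 named among these 29, chosen after their values were seen, included Tvp23b (0.57), H2bc15 (0.54), Dnajc16 (0.52), Slc5a11 (0.48), Podn (-0.64), Gnao1 (-0.63) and Recql (-0.60), and also Dpysl3 (-0.67), Akap12 (-0.72), the smooth muscle phosphatase inhibitor gene Ppp1r14a (-0.71) and the cell cycle kinase gene Pkmyt1 (0.56). All of these but Tvp23b and Dpysl3 had an adjusted p of 0.0491 in that limma fit, at the edge of the threshold. In the main fit the 29 had a median adjusted p of 0.231 and a highest of 0.525. With the 13 early arrays alone, or with only the 18-week SPARC-null arrays, 1 probe set was called, TC0M00000009.mm.2.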

How the data were processed

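Total RNA of 68 mouse prostate samples was measured on Clariom S arrays. The authors deposited 1 log2 value per probe set and array, made with RMA in the oligo package per the submitters' processing notes, with versions not given in the sources used here. Probe sets were named through GEO's platform annotation and its Entrez identifiers: of 22206 target probe sets, 19572 had 1 symbol (19505 genes) and 2634 had none. The 6923 control probe sets were left out of tests. The values were fitted with limma 3.58.1 in R 4.3.3, without a filter, over all 38 transgenic arrays by group, so that these groups share 1 estimate of the spread, and the comparisons with mice without the transgene used all 12 groups with a weight per transgene status (1.11 and 0.87). Single values were tested with exact permutation tests. The fits were tested on simulated data. Array O12 was left out of the groups because its code and genotype label disagree. It was counted among the 30 arrays without the transgene in the SV40 check.

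Named genes were Sparc, all called genes, the 8 genes with the smallest p in each direction, the SPARC family, up to 4 genes per list with the smallest p, the 6 neighbours of Sparc on each side, and the 2 with the smallest p each way in tests between effects. Some genes outside this rule are marked as chosen after their values were seen. Others carry no mark and were not picked by this rule. Among them are Krt18, Lamc1, Col4a1, Col4a2, Col1a1, Pdgfrb, Mki67, Top2a and Cdkn1a. Members and lists were chosen with earlier results of these data known. The number of arrays limits the precision, and p-values measure the spread between animals. Alternatives changed the arrays fitted, weights, array quality and age covariates, centring, normalization, a filter on signal, the prior, and each array in turn.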

Additional observations from a re-analysis of the deposited data

Results flagged for a closer look

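In 134 groups of array values, 5 held 1 array far from the others by Dixon's test, about what chance gives at 1 in 20. For TC0M00000009.mm.2, T10 had 10.75 among TRAMP arrays, and the nearest other array had 11.5. Podn in T14 was 7.04, with the nearest TRAMP array at 6.46. Smoc1 in ST25 was 5.55, with the nearest SPARC-null TRAMP array at 6.08. The mean of the basal epithelium genes, centred on the 13 arrays, was -0.11 in T11, with the nearest TRAMP array at 0.04. The same measure of the hypoxia and glycolysis genes was -0.25 in ST22, with the nearest SPARC-null TRAMP array at 0.01.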

How the results depend on the processing

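The count of 4 called probe sets became 1 with the 13 early arrays alone, with 1 weight per array or with only 18-week SPARC-null arrays, 2 with age as a covariate or with arrays centred on their median, and 29 with array quality as a covariate. Leaving out each array in turn gave 1 to 6 calls. Of 23 alternatives, TC0M00000009.mm.2 was called in 23, Zfp865 in 8, and Nid1 and TC0100001206.mm.2 in 6 each, and all kept their direction. The 3 calls without the transgene became 7 with equal weights, 10 with the quality covariate and 41 without low-quality arrays. The 0 calls for transgenic minus non-transgenic became 4 with the quality covariate, and those for late minus early stayed at 0 in each alternative run. The Sparc difference ran from -0.34 to -0.14 with 1 array left out, and without T10 (-0.34) its exact p was 0.0411, or 0.0822 adjusted over the 2 tests. The SV40 difference ran from -0.18 to 0.18 and turned positive without T8 (0.05), T11 (0.09), T12 (0.07), ST22 (0.18) or ST23 (0.07). Of 919 list medians recomputed, 911 moved by less than the spread between arrays, and 7 of the other 8 were those with age as a covariate. Of the 40 medians, 23 changed sign under at least 1 alternative. Apart from smaller sets of arrays, the cause of these changes was not tested. No paired analysis was possible because the groups share no animal number. The number of arrays and signal near the negative controls limit low genes such as Slc5a11. Nid1, Zfp865 and Sparc too lay within the range of the negative controls in both early groups, below their 95th percentile (9.159).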
